A study of Mus musculus with 8 samples.

Results

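The genes for the proteins of the mitochondrial ribosome were followed in hepatocytes, the main metabolic cell of liver, of mice with and without hepcidin and with and without a liver toxin. Members were all genes of the deposited expression table whose symbol begins with Mrps or Mrpl and a digit, without pseudogenes, which gave 77 of 16337 genes. Of these, 29 carry a small subunit symbol (Mrps) and 48 a large subunit symbol (Mrpl). Primary hepatocytes came from male C57BL/6 wild-type mice and from HAMP-/- mice, which lack the liver hormone hepcidin that limits the release of iron into blood, all 4 weeks old. The mice had received olive oil alone or 12.5% carbon tetrachloride (CCl4) in olive oil, a solvent that hepatocytes turn into a damaging radical, and exposure lasted 24 h. RNA sequencing gave 2 libraries in each of 4 groups, called wild-type oil, wild-type CCl4, knockout oil and knockout CCl4. The design names 6 mice per group, and how the HAMP-/- allele was made is not given in the sources used here. The labels leave unsaid whether both libraries of a group are from different mice, and p-values then cover only the spread among the libraries, which may be technical.

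The mitochondrial ribosome makes the few proteins encoded by mitochondrial DNA, all of them subunits of the respiratory chain and ATP synthase. Its RNAs come from mitochondrial DNA, but every one of its proteins is encoded in the nucleus, made on cytosolic ribosomes and imported. The small subunit reads the messenger RNA and the large subunit joins amino acids. Some of its proteins have counterparts in the bacterial ribosome and others exist only in mitochondria. By the list used here, 46 members have a bacterial counterpart and 31 are specific to mitochondria.

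Values were FPKM, which count sequenced fragments relative to transcript length and to all mapped fragments, so levels can be set beside each other between genes, and sequencing depth is unknown. Hamp, the deleted gene, stood at 1805 and 1826 FPKM in wild-type oil, 1273 and 1136 in wild-type CCl4, 2.72 and 0.54 in knockout oil, and 0.98 and 0.83 in knockout CCl4 libraries. The SD of the log2 difference between the 2 libraries of a group was 0.139 in both wild-type groups, 0.364 in knockout oil and 0.394 in knockout CCl4. Both knockout libraries numbered 2 stood high for the members, with 63 of 77 above library 1 in knockout oil and 67 of 77 in knockout CCl4, against 47 in wild-type oil and 17 in wild-type CCl4. Of all tested genes, 53%, 55.6%, 44.9% and 45.4% lay above library 1 in these groups, in the same order. All 10 hepatocyte markers were detected, with a summed level of 60732 to 66751 FPKM in wild-type and 78604 to 90877 FPKM in knockout libraries. In knockout against wild type 4 of them passed higher and 1 lower in oil, and 3 and 3 after CCl4. These were 50% and 60%, where 33.4% and 57.1% of all tested genes passed. For CCl4 against oil 1 passed higher and 1 lower in wild type, and 2 and 4 in knockout. These were 20% and 60%, where 15.8% and 55.3% of all tested genes passed. The summed level of 10 Kupffer cell and macrophage markers was 27.9 to 32.6 FPKM in wild-type oil, 184 to 194 in wild-type CCl4, 257 to 337 in knockout oil and 469 to 585 in knockout CCl4. That of 8 endothelial markers was 5.91 to 8.18, 4.04 to 4.47, 41.0 to 49.6 and 26.1 to 27.6 FPKM in the same order, and none of these markers was at 0 in every library. In knockout against wild type, all 10 macrophage and all 7 tested endothelial markers passed higher in oil, and 9 and 7 after CCl4. For CCl4 in wild type 8 macrophage and 6 of 8 neutrophil and monocyte markers passed higher, and for CCl4 in knockout 4 and 6, with 2 macrophage, 3 endothelial and 1 neutrophil or monocyte marker lower. Markers of other cells therefore moved with both genotype and treatment. Hepatocyte markers passed at shares near those of all tested genes, with a larger gap for genotype in oil. The part of other cells and of hepatocyte markers in the results on the members was not tested. In bulk samples, fewer cells of a type and less RNA per cell cannot be told apart.

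Promoters of 68 of the 77 members were found in RefSeq (GRCm38.p6) as windows from 250 bases before to 50 bases after a transcript start. Each was searched on both strands for letters bound by factors known to act on genes for mitochondrial proteins. These were GCGC and TGCGC with any 1 base between them for nuclear respiratory factor NRF1, CCGGAAG for ETS factors such as GABP, and AAGATGGC for YY1. The E-box, the cAMP response element (CRE) and the element of the stress factors CHOP and ATF4 were searched as well, and none of the 6 runs of letters contains another. The NRF1 letters were in 13 of 68 members (19.12%), against 12.27% of the 8165 tested genes with a window. ETS letters were in 25 members (36.76% against 21.46%), and YY1 letters in 12 (17.65% against 5.67%). The E-box CACGTG was in 5 members (7.35% against 12.24%), the CRE TGACGTCA in 2 (2.94% against 3.6%), and the CHOP-ATF4 element TGATGNAA in none (0% against 2.8%). Over all 27025 genes with a window the shares were 5.19% for NRF1, 9.93% for ETS, 3.19% for YY1, 8.09% for the E-box, 2.03% for the CRE and 4.51% for CHOP-ATF4. Windows of members had a median GC content of 58.5%, against 52.67% over all windows, and that of windows of tested genes was not computed. The part of base composition in these shares was not tested. A match is a run of letters and not a bound site. Mrps27, Mrps12, Mrps18b and Mrpl17, which carried large differences between groups and hold a match, are printed 5′ to 3′ with the matched letters in capitals. Mrps35, Mrpl15, Mrpl47, Mrps5 and Mrps6 also carried large differences but were not among the members with a match. A link between the letters and the changes was not tested. The NRF1 match of Mrpl17 begins 49 bases before the start and its ETS match 237 before. In Mrps12 the YY1 match begins 199 bases before the start and the ETS match at base 2. The only match of Mrps18b, to ETS, begins at base 44, and Mrps27 has an ETS match 48 bases before the start and a YY1 match at base 15. Mrps27 lies on the plus strand at chr13:99344536-99344835, and the others on the minus strand, Mrps12 at chr7:28741772-28742071, Mrps18b at chr17:35916391-35916690 and Mrpl17 at chr7:105811038-105811337.
Mrps27: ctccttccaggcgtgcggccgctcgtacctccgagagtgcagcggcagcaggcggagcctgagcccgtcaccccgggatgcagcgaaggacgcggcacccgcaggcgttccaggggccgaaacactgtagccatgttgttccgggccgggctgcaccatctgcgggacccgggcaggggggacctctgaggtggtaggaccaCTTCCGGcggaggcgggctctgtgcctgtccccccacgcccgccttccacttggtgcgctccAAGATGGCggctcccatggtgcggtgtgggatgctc
Mrps12: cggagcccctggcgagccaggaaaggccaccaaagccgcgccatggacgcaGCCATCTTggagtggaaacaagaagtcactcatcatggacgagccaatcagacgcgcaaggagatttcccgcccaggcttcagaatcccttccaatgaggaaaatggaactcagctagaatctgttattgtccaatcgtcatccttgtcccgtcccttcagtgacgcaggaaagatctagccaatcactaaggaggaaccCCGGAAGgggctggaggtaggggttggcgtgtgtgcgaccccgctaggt
Mrps18b: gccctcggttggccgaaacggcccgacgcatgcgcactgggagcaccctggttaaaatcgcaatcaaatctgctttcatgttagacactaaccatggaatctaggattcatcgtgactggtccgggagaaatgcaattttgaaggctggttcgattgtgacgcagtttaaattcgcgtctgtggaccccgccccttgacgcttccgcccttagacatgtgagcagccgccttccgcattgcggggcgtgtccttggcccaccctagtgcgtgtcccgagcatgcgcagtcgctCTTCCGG
Mrpl17: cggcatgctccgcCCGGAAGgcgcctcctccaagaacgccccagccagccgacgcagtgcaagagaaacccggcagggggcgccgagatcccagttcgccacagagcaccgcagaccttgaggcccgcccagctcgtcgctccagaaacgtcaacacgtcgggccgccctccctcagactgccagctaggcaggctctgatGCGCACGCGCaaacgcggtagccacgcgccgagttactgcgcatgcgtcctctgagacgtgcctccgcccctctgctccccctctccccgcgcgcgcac

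All 77 members were expressed, and all passed the filter of at least 1 FPKM in at least 2 libraries. Their mean level over the 8 libraries had a median of 18.9 FPKM, against 6.03 FPKM over the 10082 tested genes, and 74 of the 77 lay above that value. The median was 18.01 FPKM for small subunit and 21.4 FPKM for large subunit genes. Together the members made up 0.295% to 0.356% of the summed FPKM of a library. The highest large subunit gene was Mrpl12, for the stalk protein that contacts translation factors, with 96.9 and 102 FPKM in wild-type oil, 102 and 96.5 in wild-type CCl4, 102 and 125 in knockout oil, and 72.9 and 86.3 in knockout CCl4 libraries. In the small subunit Mrps21 was highest, a counterpart of bacterial S21, with 66.3 and 77.8 FPKM in wild-type oil, 80.6 and 60.6 in wild-type CCl4, 70.4 and 89.9 in knockout oil, and 48.8 and 60.4 in knockout CCl4 libraries. At the low end, Mrpl19 held 2.75 and 2.45 FPKM in wild-type oil, 2.67 and 2.56 in wild-type CCl4, 1.95 and 1.86 in knockout oil, and 2.47 and 2.70 in knockout CCl4 libraries. Both high genes lay lowest in knockout CCl4 library 1. Mrps25 was the lowest of all, with 2.74 and 2.46 FPKM in wild-type oil, 2.62 and 2.14 in wild-type CCl4, 1.99 and 2.18 in knockout oil, and 2.04 and 1.54 in knockout CCl4 libraries. Members of one particle thus differed widely in transcript level per length, from 1.54 FPKM for Mrps25 to 134 FPKM for Mrpl52, each in knockout CCl4 library 2.

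**Figure D1:**
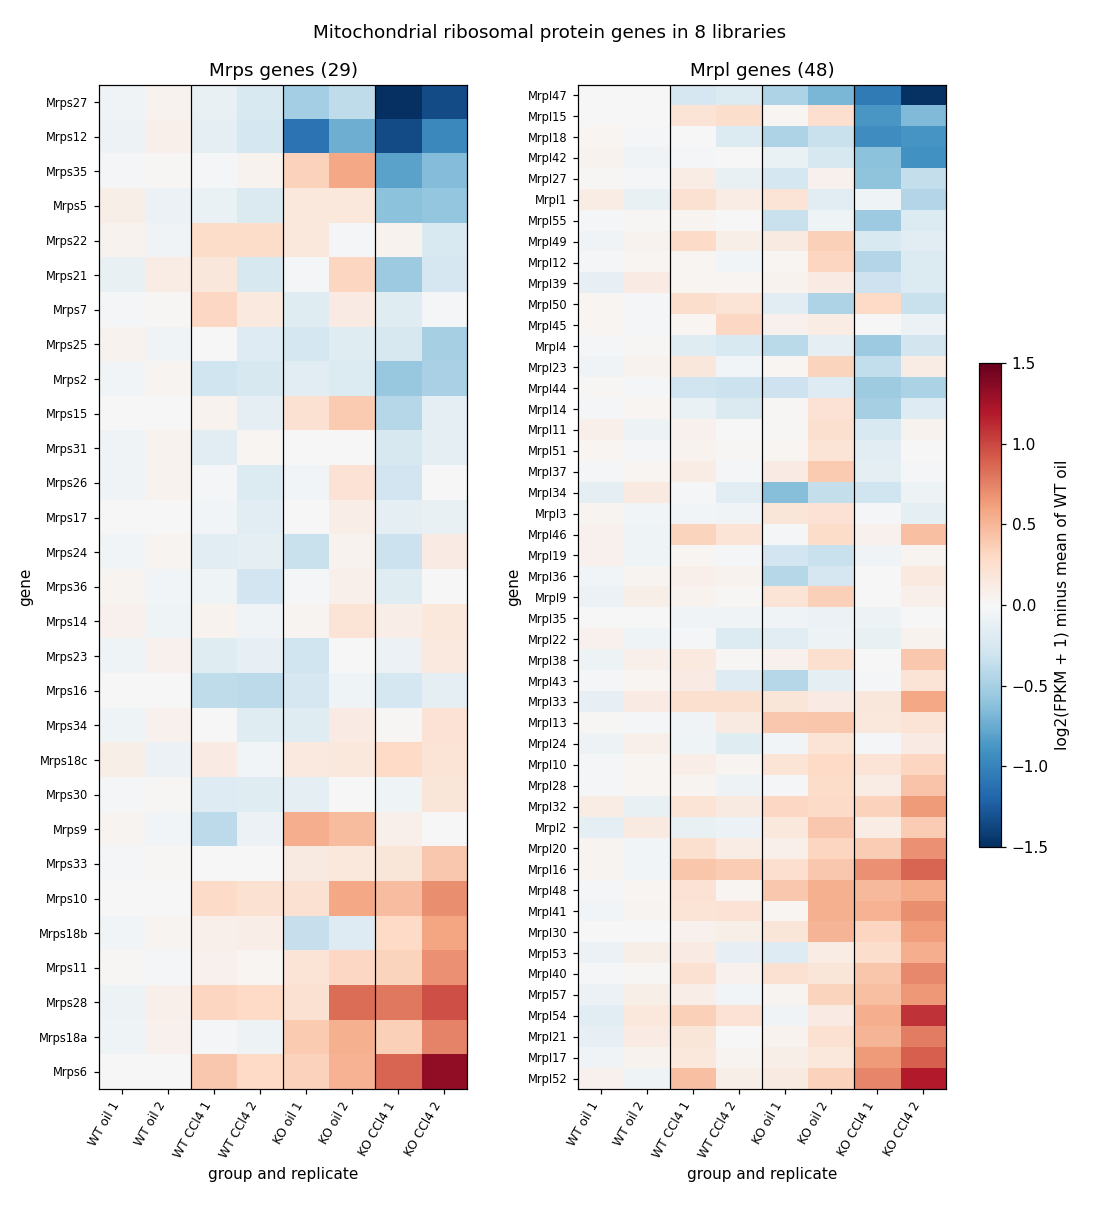
Level of each of the 77 members in each of the 8 libraries, as log2(FPKM + 1) minus the mean of the 2 wild-type oil libraries (colour, log2 units, with the darkest colours at or beyond the ends of the scale). Genes are ordered within each subunit by their log2 change in knockout against wild type after CCl4. Blue genes such as Mrps27 and Mrpl47 and red genes such as Mrps6 and Mrpl52 stand at opposite ends, and most of the strong colour is in the knockout columns.

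Changes were tested with limma on log2(FPKM + 1), which understates changes of low genes, with Benjamini-Hochberg adjustment over all 10082 tested genes. A gene passed at an adjusted p under 0.05. Each log2 change is given with its standard error. All pairs that passed between 2 groups had both libraries of one group above both of the other. With 2 libraries a group, a gene that passes can hardly do otherwise, so this is no further support. The share of all tested genes without overlap was not counted. Over the 4 pairwise comparisons, 43 members passed at least once and 34 passed in none. Of the 43, 20 passed in 1 comparison, 18 in 2, 4 in 3 and 1, Mrpl16, in all 4. In the single pairwise comparisons 15.8% to 57.1% of all tested genes passed. Their share over the 4 comparisons together was not counted, so these counts do not show a broad response of the members.

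**Figure D2:**
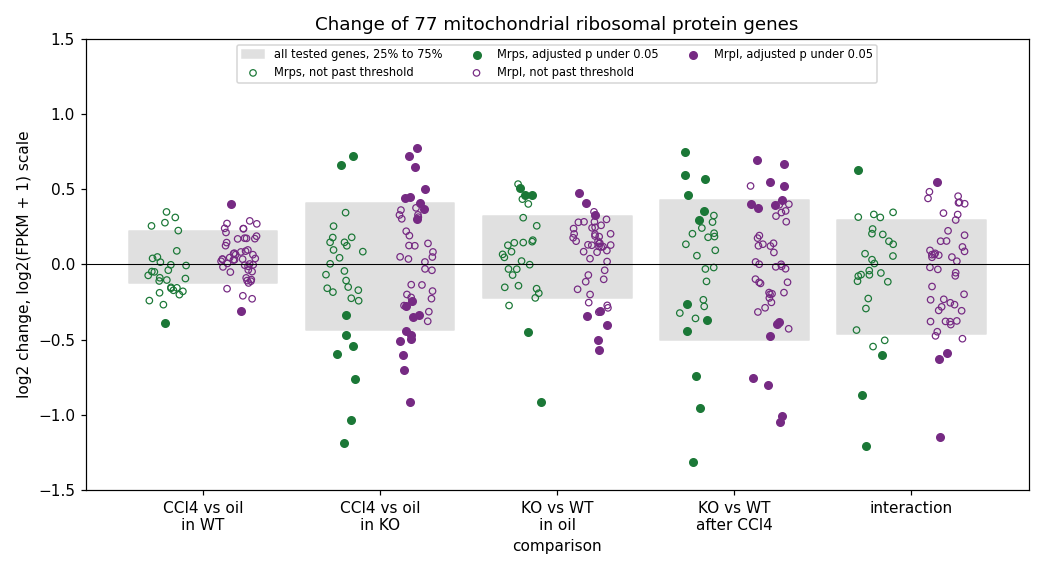
Log2 change of each member (points, log2(FPKM + 1) scale) in the 4 pairwise comparisons and the interaction, small subunit genes in green and large subunit genes in purple, filled where the adjusted p was under 0.05. Grey bands span the interquartile range of all tested genes; 3 members passed for CCl4 in wild type, 29 for CCl4 in knockout, 13 for genotype in oil, 27 for genotype after CCl4 and 8 for the interaction.

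In wild-type hepatocytes the members moved little with CCl4. Mrpl16 rose, and Mrps16 and Mrpl44 fell, 3 of 77 members, where 15.8% of all tested genes passed (10.2% higher and 5.61% lower). Mrps16, a counterpart of bacterial S16, held 30.1 and 30.1 FPKM in wild-type oil, 22.9 and 22.7 in wild-type CCl4, 25.1 and 28.7 in knockout oil, and 24.9 and 27.3 in knockout CCl4 libraries. Mrpl44, a large subunit protein with an RNase III-like fold, held 11.2 and 10.8 FPKM in wild-type oil, 8.77 and 8.58 in wild-type CCl4, 8.70 and 9.46 in knockout oil, and 7.33 and 7.67 in knockout CCl4 libraries. For Mrpl16, a counterpart of bacterial L16, the values were 16.3 and 15.4 FPKM in wild-type oil, 21.5 and 20.99 in wild-type CCl4, 19.1 and 21.2 in knockout oil, and 25.98 and 29.9 in knockout CCl4 libraries. The wild-type CCl4 libraries lay apart from the wild-type oil libraries for all 3 genes. Mrps16 fell by 0.39 ± 0.09 (adjusted p = 0.0302) and Mrpl44 by 0.31 ± 0.08 (adjusted p = 0.0467), while Mrpl16 rose by 0.40 ± 0.10 (adjusted p = 0.0347). The median log2 change was 0.02 over the members, -0.07 over small subunit genes, 0.04 over large subunit genes and 0.04 over all tested genes. Without any 1 of the 4 wild-type libraries no member passed, with adjusted p of these 3 between 0.145 and 0.250, and the Mrpl44 call was also lost without either knockout oil library (adjusted p = 0.0613 and 0.0634). With only the 4 wild-type libraries fitted, 13 members passed higher and 8 lower, beside 2619 and 1561 of all tested genes.

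In knockout hepatocytes CCl4 went with changes in both directions. Of the 77 members, 11 rose and 18 fell, 37.7% in all, where 55.3% of all tested genes passed (27.9% higher and 27.4% lower). In the small subunit 2 genes rose and 7 fell, and in the large subunit 9 rose and 11 fell. The median log2 change was -0.03 over the members and also over all tested genes, and the interquartile range ran from -0.27 to 0.22 for members and from -0.43 to 0.41 for all tested genes.

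The 2 largest falls were in the small subunit. Mrps35, specific to mitochondria, held 12.4 and 12.7 FPKM in wild-type oil, 12.3 and 13.1 in wild-type CCl4, 16.2 and 19.3 in knockout oil, and 6.76 and 7.63 in knockout CCl4 libraries. Mrps27, a pentatricopeptide repeat protein also specific to mitochondria, held 14.6 and 15.7 FPKM in wild-type oil, 13.9 and 12.7 in wild-type CCl4, 10.3 and 11.3 in knockout oil, and 4.22 and 5.36 in knockout CCl4 libraries. Mrps5, a counterpart of bacterial S5 near the entry of the messenger RNA, held 24.2 and 21.1 FPKM in wild-type oil, 21.1 and 19.3 in wild-type CCl4, 25.5 and 25.4 in knockout oil, and 14.4 and 14.8 in knockout CCl4 libraries. For all 3, both knockout CCl4 libraries were the lowest of the 8. Mrps35 fell by 1.19 ± 0.11 (adjusted p = 0.000150), Mrps27 by 1.04 ± 0.12 (adjusted p = 0.000442) and Mrps5 by 0.76 ± 0.09 (adjusted p = 0.000521). Mrps35 and Mrps27 were the only members to change at least 2-fold on this scale. The small subunit genes that rose were Mrps18b and Mrps6. Mrps18b, a vertebrate relative of bacterial S18, held 30.4 and 32.3 FPKM in wild-type oil, 33.2 and 33.7 in wild-type CCl4, 24.4 and 27.2 in knockout oil, and 38.8 and 47.9 in knockout CCl4 libraries. Mrps6, a counterpart of bacterial S6, held 8.57 and 8.57 FPKM in wild-type oil, 11.7 and 10.7 in wild-type CCl4, 11.2 and 12.7 in knockout oil, and 16.5 and 23 in knockout CCl4 libraries. For both genes the knockout CCl4 libraries were the highest of the 8, and for Mrps18b the knockout oil libraries were the lowest. Mrps18b rose by 0.72 ± 0.11 (adjusted p = 0.00189) and Mrps6 by 0.66 ± 0.15 (adjusted p = 0.01005). The 4 other small subunit genes that fell were Mrps15, Mrps2, Mrps9 and Mrps21, by 0.34 to 0.59.

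In the large subunit the strongest fall was that of Mrpl15, a counterpart of bacterial L15, with 13.1 and 13.3 FPKM in wild-type oil, 15.4 and 16.1 in wild-type CCl4, 13.5 and 15.9 in knockout oil, and 6.73 and 7.97 in knockout CCl4 libraries. Mrpl18, a counterpart of L18 in the central protuberance, held 41.6 and 40.04 FPKM in wild-type oil, 40.7 and 35.2 in wild-type CCl4, 29.3 and 32.2 in knockout oil, and 20.9 and 21.7 in knockout CCl4 libraries. Mrpl42, specific to mitochondria, held 46.6 and 43.5 FPKM in wild-type oil, 44.1 and 45.3 in wild-type CCl4, 42.1 and 38.1 in knockout oil, and 28.98 and 23.5 in knockout CCl4 libraries. Knockout CCl4 libraries were the lowest 2 of the 8 for each of the 3. Mrpl15 fell by 0.91 ± 0.11 (adjusted p = 0.000578), Mrpl18 by 0.51 ± 0.09 (adjusted p = 0.00390) and Mrpl42 by 0.60 ± 0.11 (adjusted p = 0.00395). Mrpl17, a counterpart of bacterial L17, held 4.97 and 5.43 FPKM in wild-type oil, 5.90 and 5.36 in wild-type CCl4, 5.58 and 5.89 in knockout oil, and 8.64 and 10.51 in knockout CCl4 libraries. Mrpl36, a short protein with a bacterial counterpart L36, held 22.7 and 24.3 FPKM in wild-type oil, 24.8 and 24.4 in wild-type CCl4, 17.2 and 19.6 in knockout oil, and 23.3 and 26.02 in knockout CCl4 libraries. Mrpl17 rose by 0.65 ± 0.11 (adjusted p = 0.00303), Mrpl16 by 0.45 ± 0.10 (adjusted p = 0.00719) and Mrpl36 by 0.41 ± 0.09 (adjusted p = 0.0104). Mrpl17 and Mrpl16 were highest in the knockout CCl4 libraries, whereas Mrpl36 had its low values in knockout oil. Mrpl52 and Mrpl54, specific to mitochondria, rose by 0.72 ± 0.18 (adjusted p = 0.0143) and 0.77 ± 0.19 (adjusted p = 0.0138). Of the 29 calls, 7 held under all 19 alternatives run, those of Mrps35, Mrps27, Mrps5, Mrps18b, Mrpl42, Mrpl47 and Mrpl17, and that of Mrpl15 was lost once trends with GC content and transcript length were removed (log2 change -0.73, adjusted p = 0.0849). The 11 rises became 4 without knockout oil library 1, 7 without knockout CCl4 library 2 and 18 without knockout CCl4 library 1, the 18 falls became 10 without knockout oil library 2, and the calls of Mrpl36 and Mrpl54 were lost without knockout oil library 1 (adjusted p = 0.0550 and 0.0583) and that of Mrpl52 without that library or without knockout CCl4 library 2 (adjusted p = 0.0533 to 0.0626).

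**Figure D3:**
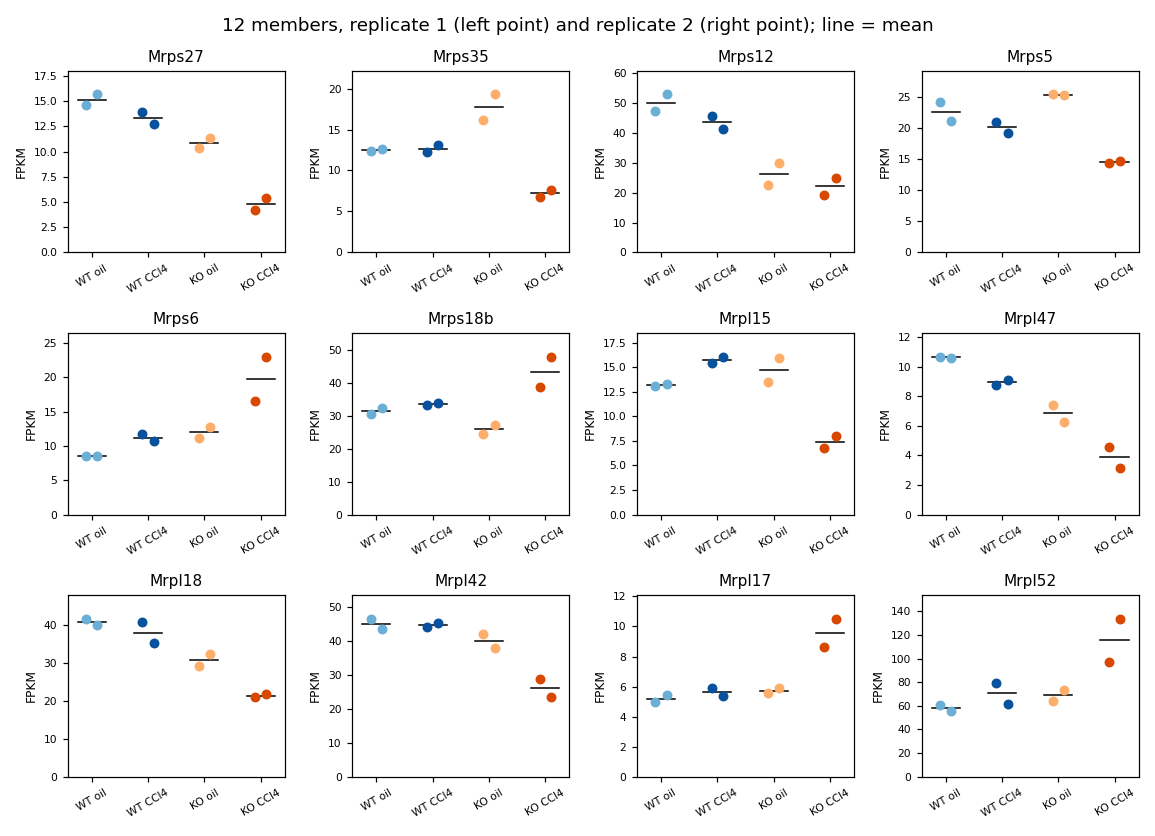
FPKM of 12 members in each library (points, replicate 1 left and replicate 2 right; line, mean of the 2), with the y axis from 0 in each panel. Mrps27, Mrps35, Mrps5, Mrpl15, Mrpl47, Mrpl18 and Mrpl42 lie lowest in both knockout CCl4 libraries, Mrps6, Mrps18b, Mrpl17 and Mrpl52 lie highest there, and Mrps12 is low in all 4 knockout libraries.

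Without the toxin, the knockout differed from wild type in 13 members, of which 6 were higher and 7 lower, 16.9%, where 33.4% of all tested genes passed (22.4% higher and 11% lower). The largest difference was that of Mrps12, a counterpart of bacterial S12 at the decoding centre, with 47.4 and 52.9 FPKM in wild-type oil, 45.5 and 41.5 in wild-type CCl4, 22.7 and 29.9 in knockout oil, and 19.1 and 25.1 in knockout CCl4 libraries. All 4 knockout libraries lay below all 4 wild-type libraries. Mrps12 fell by 0.92 ± 0.17 in the oil groups (adjusted p = 0.00720). Mrps27 fell by 0.45 ± 0.12 (adjusted p = 0.0288), whereas Mrps35 rose by 0.46 ± 0.11 (adjusted p = 0.0179), its highest level in any group. Mrps9, a counterpart of bacterial S9, held 9.42 and 8.83 FPKM in wild-type oil, 6.68 and 8.56 in wild-type CCl4, 13.8 and 13.02 in knockout oil, and 9.68 and 9.16 in knockout CCl4 libraries. Mrps18a, a relative of bacterial S18 that structures place in the large subunit, held 20.2 and 22.4 FPKM in wild-type oil, 21.01 and 20.03 in wild-type CCl4, 28.2 and 31.3 in knockout oil, and 27.5 and 36.2 in knockout CCl4 libraries. Mrps9 rose by 0.51 ± 0.12 (adjusted p = 0.0181) and Mrps18a by 0.46 ± 0.14 (adjusted p = 0.0406), Mrps9 being highest in knockout oil and Mrps18a in all 4 knockout libraries.

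Among large subunit genes Mrpl48, specific to mitochondria, held 16.9 and 17.6 FPKM in wild-type oil, 20.1 and 17.7 in wild-type CCl4, 23.2 and 25.4 in knockout oil, and 24.5 and 25.8 in knockout CCl4 libraries. Mrpl13, a counterpart of bacterial L13, held 27 and 26.4 FPKM in wild-type oil, 25.6 and 29.5 in wild-type CCl4, 35.7 and 35.9 in knockout oil, and 29.9 and 30.9 in knockout CCl4 libraries. Mrpl47, a counterpart of L29 near the exit of the protein tunnel, held 10.7 and 10.6 FPKM in wild-type oil, 8.74 and 9.13 in wild-type CCl4, 7.44 and 6.26 in knockout oil, and 4.56 and 3.16 in knockout CCl4 libraries. Mrpl48 was higher and Mrpl47 lower in every knockout than in every wild-type library, and Mrpl13 was highest in knockout oil. Mrpl48 rose by 0.47 ± 0.09 (adjusted p = 0.00924), Mrpl13 by 0.41 ± 0.08 (adjusted p = 0.0114) and Mrpl16 by 0.33 ± 0.10 (adjusted p = 0.0398). Mrpl18 fell by 0.40 ± 0.09 (adjusted p = 0.0190), Mrpl47 by 0.57 ± 0.15 (adjusted p = 0.0278) and Mrpl36 by 0.34 ± 0.09 (adjusted p = 0.0336), and Mrpl34 and Mrpl19 also fell. The median log2 change was 0.12 over the members and 0.05 over all tested genes. None of the 13 calls held under every alternative. Each was lost without at least 1 library, with adjusted p between 0.0511 and 0.224, and that of Mrps12 only without wild-type oil library 2 (adjusted p = 0.0581). The 6 higher and 7 lower calls became 4 and 9 after quantile normalization, 0 and 1 without wild-type oil library 1, 0 and 0 without wild-type oil library 2, and 2 and 4 without knockout oil library 2, with 2 lower calls without knockout oil library 1 or either wild-type CCl4 library and 11 higher calls without either knockout CCl4 library.

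After CCl4 the knockout differed from wild type in 27 members, 14 higher and 13 lower, 35.1%, where 57.1% of all tested genes passed (29.6% higher and 27.5% lower). In the small subunit 6 were higher and 6 lower, and in the large subunit 8 were higher and 7 lower. This comparison shares libraries with those above, so the values of the same genes are not independent. Mrps27 was 1.31 ± 0.12 lower (log2, adjusted p = 0.000182), Mrps12 0.96 ± 0.17 lower (adjusted p = 0.00328) and Mrps35 0.74 ± 0.11 lower (adjusted p = 0.00142). On the higher side were Mrps6 with 0.75 ± 0.15 (adjusted p = 0.00615), Mrps18a with 0.60 ± 0.14 (adjusted p = 0.00958) and Mrps11, a counterpart of bacterial S11. Mrps11 held 8.77 and 8.59 FPKM in wild-type oil, 9.13 and 8.91 in wild-type CCl4, 10.2 and 10.98 in knockout oil, and 11.2 and 14.6 in knockout CCl4 libraries, and its log2 change was 0.46 ± 0.12 (adjusted p = 0.0172). Its 2 knockout CCl4 libraries were the highest of the 8.

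Large subunit genes gave Mrpl47 with a log2 change of -1.05 ± 0.15 (adjusted p = 0.00134), Mrpl15 with -1.01 ± 0.11 (adjusted p = 0.000424) and Mrpl18 with -0.80 ± 0.09 (adjusted p = 0.000569). With Mrps27, Mrpl47 and Mrpl15 were the members that differed at least 2-fold on this scale. Mrpl21, a counterpart of bacterial L21, held 9.36 and 11.3 FPKM in wild-type oil, 11.8 and 10.3 in wild-type CCl4, 10.7 and 12.2 in knockout oil, and 15.1 and 18.2 in knockout CCl4 libraries. Mrpl17 rose by 0.67 ± 0.11 (adjusted p = 0.00282), Mrpl48 by 0.40 ± 0.09 (adjusted p = 0.0104) and Mrpl21 by 0.55 ± 0.14 (adjusted p = 0.0143), each without overlap of the groups. The median log2 change was 0.02 over the members and -0.02 over all tested genes. Of the 27 calls, 7 held under all 20 alternatives run, those of Mrps27, Mrps12, Mrps6, Mrpl47, Mrpl42, Mrpl18 and Mrpl17. The calls of Mrpl15 and Mrps35 were lost once GC content and transcript length trends were removed (-0.46, adjusted p = 0.240, and -0.45, adjusted p = 0.118). Without wild-type CCl4 library 2 those of Mrps18a, Mrps11, Mrpl48 and Mrpl21 were lost (adjusted p = 0.0598 to 0.0916). That of Mrps11 was also lost without wild-type CCl4 library 1 (adjusted p = 0.0703) and that of Mrpl21 without knockout CCl4 library 2 (adjusted p = 0.0634). The counts became 8 higher and 8 lower without wild-type CCl4 library 1, and the 14 higher calls became 3 without wild-type CCl4 library 2, 23 without knockout CCl4 library 1 and 5 without knockout CCl4 library 2.

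The response to CCl4 itself differed between the genotypes for 8 members by the interaction, the CCl4 change in knockout minus that in wild type, 10.4% of members where 33.3% of all tested genes passed (14.3% higher and 19% lower). It was negative for 6 and positive for 2. Mrps35 had an interaction of -1.20 ± 0.15 (adjusted p = 0.00160), since its wild-type libraries lay between 12.3 and 13.1 FPKM while its knockout libraries went from 16.2 and 19.3 to 6.76 and 7.63. Mrpl15 gave -1.15 ± 0.16 (adjusted p = 0.00219), Mrps27 -0.86 ± 0.17 (adjusted p = 0.00917), Mrps5 -0.60 ± 0.13 (adjusted p = 0.0131) and Mrpl42 -0.59 ± 0.16 (adjusted p = 0.0306). The sixth, Mrpl49, specific to mitochondria, held 12.8 and 13.7 FPKM in wild-type oil, 16.4 and 14.2 in wild-type CCl4, 14.6 and 17.2 in knockout oil, and 11.1 and 11.7 in knockout CCl4 libraries. Its interaction was -0.63 ± 0.16 (adjusted p = 0.0246), the wild-type CCl4 libraries being above and the knockout CCl4 libraries below the oil libraries of their genotype. Mrps18b was positive with 0.63 ± 0.16 (adjusted p = 0.0254) and Mrpl17 with 0.55 ± 0.16 (adjusted p = 0.0404). Those of Mrps35 and Mrps27 held under all 18 alternatives run, and that of Mrpl15 was lost with GC content and transcript length trends removed (-0.87, adjusted p = 0.166). The other 5 were lost without wild-type oil library 2 and again without wild-type CCl4 library 1 (adjusted p = 0.0565 to 0.139), which left 0 positive and 3 negative calls, and after quantile normalization there were 6 and 5. The 2 positive calls became 0 without wild-type oil library 1, wild-type CCl4 library 2 or knockout oil library 1, 1 without knockout CCl4 library 2 and 5 without knockout CCl4 library 1.

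The 2 subunits were compared within each library by the mean of log2(FPKM + 1) over their genes. The small subunit mean lay below the large subunit mean in all 8 libraries. The difference was -0.07 and -0.08 in wild-type oil and -0.08 and -0.06 in knockout oil, against -0.17 and -0.16 in wild-type CCl4 and -0.19 and -0.18 in knockout CCl4. The 4 CCl4 libraries did not overlap with the 4 oil libraries, in either genotype. The subunit means themselves moved less regularly, between 4.13 and 4.41 for the small and between 4.32 and 4.48 for the large subunit. In both knockout groups library 2 was above library 1 for both subunits. The differences are a description over chosen genes, with no test.

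**Figure D4:**
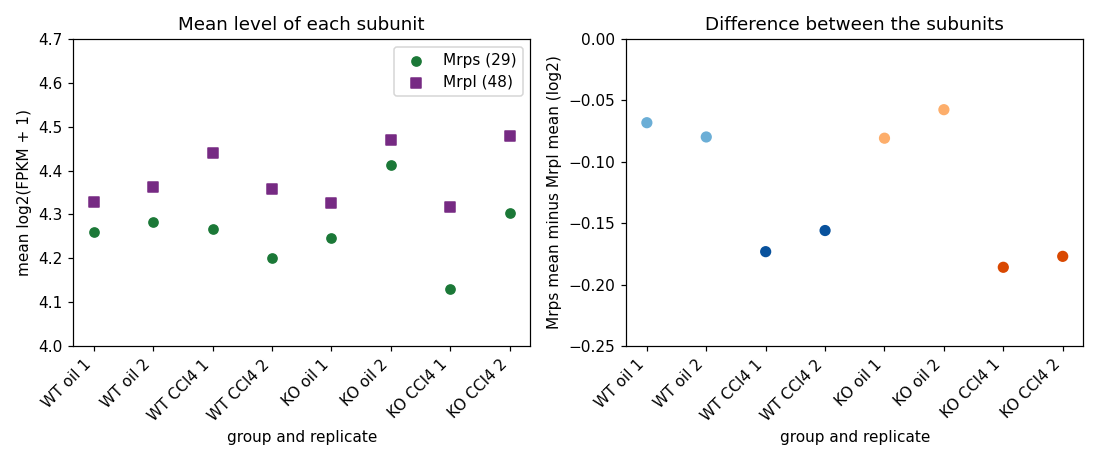
Left, mean log2(FPKM + 1) of the 29 small subunit genes (circles) and the 48 large subunit genes (squares) in each library. Right, small minus large subunit mean in each library, which lies between -0.06 and -0.08 in the 4 oil libraries and between -0.16 and -0.19 in the 4 CCl4 libraries; blue points are wild type, orange points knockout, darker after CCl4.

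By origin, 17 of 46 members with a bacterial counterpart passed for CCl4 in knockout (6 higher, 11 lower) and 12 of 31 members specific to mitochondria (5 higher, 7 lower). For genotype after CCl4 these were 15 of 46 (7 higher, 8 lower) and 12 of 31 (7 higher, 5 lower). The shares were 37.0% and 38.7% in the first comparison, against 55.3% of all tested genes, and 32.6% and 38.7% in the second, against 57.1%. Of the proteins with an unusual place, Mrps30, a large subunit protein by structures, held 13.3 and 13.7 FPKM in wild-type oil, 11.7 and 11.8 in wild-type CCl4, 12.2 and 13.4 in knockout oil, and 12.8 and 15.4 in knockout CCl4 libraries. Mrps36, which is also a component of the 2-oxoglutarate dehydrogenase complex, held 19.4 and 18.1 FPKM in wild-type oil, 17.9 and 15.1 in wild-type CCl4, 18.4 and 19.8 in knockout oil, and 16.4 and 18.9 in knockout CCl4 libraries. Neither passed in any comparison, and their groups lay close together. Among the highest members, Mrpl12 fell by 0.50 ± 0.12 with CCl4 in knockout (adjusted p = 0.0130) and Mrps21 by 0.54 ± 0.19 (adjusted p = 0.0472). The Mrpl12 call was lost without knockout oil library 2 (adjusted p = 0.0520), and that of Mrps21 without that library, knockout CCl4 library 1 or either wild-type oil library (adjusted p = 0.0704 to 0.184).

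Transcript lengths of the members are set out by direction, with no test. For CCl4 in knockout, the longest annotated transcript had a median of 1115 bases in the 11 members that rose, 2358 in the 18 that fell and 1923 in the 48 others. For genotype after CCl4 the medians were 1209 bases in the 14 higher, 2504 in the 13 lower and 1923 in the 50 other members. In the oil comparison the order was the other way, with 3633 bases in the 6 higher and 1219 in the 7 lower members. GC content had medians of 52.57% and 49.67% in members that rose and fell with CCl4 in knockout. With trends of length and GC content removed together, 9 higher and 24 lower members were called for CCl4 in knockout. For genotype after CCl4 they were 15 and 20, and for genotype in oil 5 and 14. Over all 10082 tested genes the counts were then 3233 and 3035, 3444 and 2974, and 2355 and 2132, in the same order. Before that removal all tested genes gave 2816 and 2758, 2989 and 2772, and 2256 and 1112. The part of length alone was not tested.

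Some members have a close neighbour. By GENCODE M21, 18 of 77 start head to head with another coding gene within 1000 bases, and 26 overlap one. The shares over all genes were not counted. Mrps27 is head to head with Ptcd2, for another pentatricopeptide repeat protein of mitochondria, which held 15.03 and 13.7 FPKM in wild-type oil, 12.5 and 13.99 in wild-type CCl4, 11.1 and 12.1 in knockout oil, and 6.43 and 7.53 in knockout CCl4 libraries. Ptcd2 also lay lowest in knockout CCl4, and fell by 0.66 with CCl4 in knockout (adjusted p = 0.00224), beside 1.04 for Mrps27. Mrps12 is paired with Sars2, the mitochondrial seryl-tRNA synthetase gene, with log2 changes after CCl4 in knockout against wild type of -0.96 and -0.36 (adjusted p = 0.0248 for Sars2). In oil, where Mrps12 was also lower in the knockout, Sars2 did not pass (adjusted p = 0.504), with 4.27 and 4.79 FPKM in wild-type and 3.97 and 4.36 in knockout libraries. Other pairs had opposite signs. Mrps18b rose with CCl4 in knockout while its neighbour Ppp1r10, for a regulatory subunit of a protein phosphatase, fell by 1.79 (adjusted p = 1.43e-05), from 14.4 and 14.2 to 3.29 and 3.56 FPKM. Mrpl49 fell by 0.44 ± 0.11 (adjusted p = 0.0151) while Fau, which encodes a cytosolic ribosomal protein, rose by 0.58 (adjusted p = 0.0132), and the Mrpl49 call was lost without knockout oil library 2 (adjusted p = 0.0729). Of the members described with full values, Mrpl13, Mrpl18, Mrpl19, Mrpl21, Mrpl36, Mrpl44, Mrpl47, Mrpl48, Mrpl49, Mrps11, Mrps18a, Mrps25 and Mrps30 overlap a coding gene on the opposite strand. The use of strand in counting is not given in the sources used here, so their levels are uncertain. Mrps6 overlaps Slc5a3, listed at 0.11 to 0.76 FPKM, on the same strand, where strand could not separate the reads, and its level is uncertain too. Mrpl23, Mrpl48 and Mrps36 have named pseudogenes that could share their reads.

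The cytosolic ribosome and the respiratory chain are set beside the members. In knockout hepatocytes after CCl4, 81 of 83 tested cytosolic ribosomal protein genes rose and none fell, with a median log2 change of 0.75. That was 97.59%, against 55.3% of all tested genes. Of the 77 members 11 rose and 18 fell, 37.7%, with a median of -0.03. The cytosolic list was made by symbol, so it holds Rps19bp1, for a protein that binds a ribosomal protein, and leaves out Fau. The share of the cytosolic list in the summed FPKM was 2.996% and 3.13% in wild-type oil, 3.81% and 3.68% in wild-type CCl4, 3.56% and 4.02% in knockout oil and 5.70% and 6.37% in knockout CCl4 libraries. Of 89 tested respiratory chain and ATP synthase genes, a list that includes assembly factors, 4 rose and 30 fell, with a median of -0.14. That was 38.2%, against 55.3% of all tested genes (27.4% lower). For genotype after CCl4, 79 cytosolic ribosomal protein genes were higher and 1 lower, and 22 respiratory chain genes were higher and 14 lower. These were 96.39% and 40.45%, against 57.1% of all tested genes. In oil, 51 respiratory chain genes were higher and 2 lower in the knockout, 59.55% against 33.4% of all tested genes. The cytosolic ribosomal protein genes that passed were thus nearly all on one side of 0, and the mitochondrial ones on both.

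**Figure D5:**
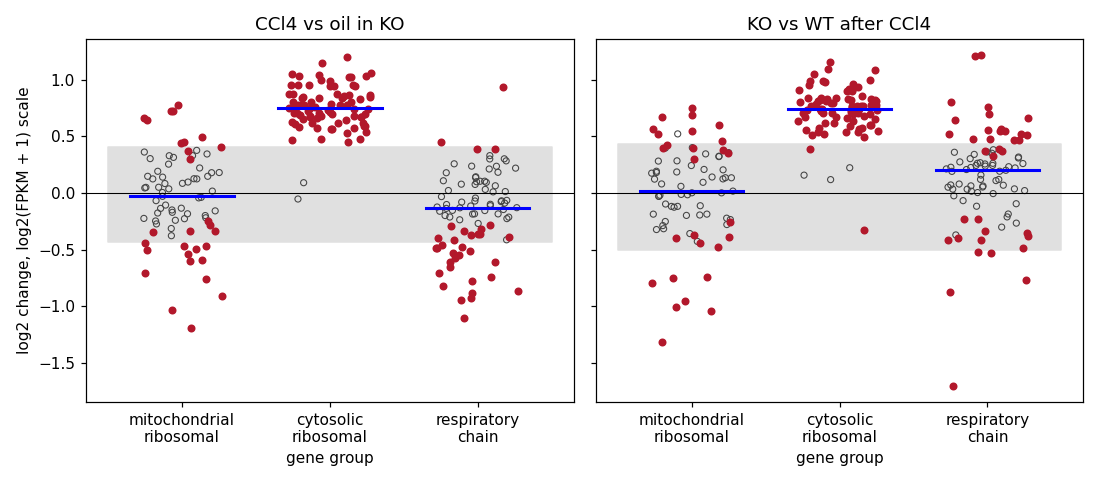
Log2 change (log2(FPKM + 1) scale) of single genes of 3 groups for CCl4 in knockout (left) and knockout against wild type after CCl4 (right), red where the adjusted p was under 0.05. Blue lines are group medians, which in the left panel are -0.03 for 77 mitochondrial ribosomal, 0.75 for 83 cytosolic ribosomal and -0.14 for 89 respiratory chain genes, and grey bands are the interquartile range of all tested genes.

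Of the 6 mitochondrial ribosomal proteins with other symbols, 1 passed for CCl4 in knockout. Ptcd3, a pentatricopeptide repeat protein of the small subunit, had 10.3 and 9.94 FPKM in wild-type oil, 9.18 and 9.49 in wild-type CCl4, 11.5 and 7.13 in knockout oil, and 5.21 and 2.14 in knockout CCl4 libraries. It fell by 1.19 ± 0.33 (adjusted p = 0.0204), with the 2 libraries of each knockout group far apart. Chchd1 and Aurkaip1, for small subunit proteins, were higher in the knockout after CCl4 by 0.40 (adjusted p = 0.0128) and 0.39 (adjusted p = 0.0444), where Ptcd3 was 1.23 lower. Dap3, Gadd45gip1 and Ict1 passed in no comparison.

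Among 15 mitochondrial translation factors 2 rose and 6 fell with CCl4 in knockout, 53.3% against 55.3% of all tested genes, which is near the background share, and none passed in wild type, where 15.8% of all did. Gfm1, the elongation factor that moves the ribosome along, had 24.2 and 22.4 FPKM in wild-type oil, 25.8 and 26.1 in wild-type CCl4, 29.4 and 30.1 in knockout oil, and 16.1 and 16.3 in knockout CCl4 libraries. Gfm2, which splits ribosomes after a round of translation, had 12.4 and 12.2, 11.9 and 11.99, 12.9 and 12.2, and 6.95 and 7.37 FPKM in the same order. Gfm1 fell by 0.84 ± 0.07 (adjusted p = 0.000120), Gfm2 by 0.73 ± 0.08 (adjusted p = 0.000302) and Taco1, an activator of cytochrome oxidase translation, by 0.77 ± 0.09 (adjusted p = 0.000383). Their interactions also passed, with -0.99, -0.69 and -0.74 (adjusted p = 0.000677, 0.00395 and 0.00459). The initiation factor gene Mtif2 fell by 0.99 (adjusted p = 0.0391) and Lrpprc, for a stabilizer of mitochondrial messenger RNAs, by 1.04 (adjusted p = 0.0192). The elongation factor gene Tufm, at 53.5 to 70.0 FPKM, passed in no comparison.

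Among 24 ribosome assembly and rRNA factors 4 rose and 8 fell with CCl4 in knockout, 50% against 55.3% of all tested genes. Ddx28, a helicase of large subunit assembly, had 7.68 and 8.52 FPKM in wild-type oil, 9.36 and 8.41 in wild-type CCl4, 4.77 and 6.02 in knockout oil, and 17.5 and 22.1 in knockout CCl4 libraries. Tfb1m, the methyltransferase of the small subunit RNA, had 3.98 and 4.43, 3.70 and 3.69, 3.67 and 4.41, and 1.33 and 1.01 FPKM in the same order. Ddx28 rose by 1.70 ± 0.15 (adjusted p = 0.000124) and Tfb1m fell by 1.22 ± 0.12 (adjusted p = 0.000221). Their interactions were 1.58 (adjusted p = 0.00189) and -1.07 (adjusted p = 0.00406). In wild type only Eral1, a chaperone of the small subunit RNA, and Mettl17 passed, falling by 0.42 (adjusted p = 0.0358) and 0.38 (adjusted p = 0.0349).

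Of 8 genes for expression and upkeep of mitochondrial DNA, 1 rose and 4 fell with CCl4 in knockout, 62.5% against 55.3% of all tested genes. Polrmt, the mitochondrial RNA polymerase, rose by 0.60 ± 0.10 (adjusted p = 0.00275), and Tfam, the factor that packs the DNA and starts transcription, fell by 0.81 ± 0.18 (adjusted p = 0.00917). Polg2 fell by 1.12 (adjusted p = 0.000511). Of 9 regulators, 5 rose and 2 fell, 77.8% against the same background. Ppargc1a, a coactivator of mitochondrial genes, stood at 1.01 and 1.01 FPKM in wild-type oil, 0.87 and 0.94 in wild-type CCl4, 2.89 and 1.63 in knockout oil, and 11.3 and 6.67 in knockout CCl4 libraries. It rose by 1.60 ± 0.26 (adjusted p = 0.00199), Myc by 1.07 ± 0.15 (adjusted p = 0.00101) and Nrf1 by 0.46 ± 0.10 (adjusted p = 0.00815). Esrra, a nuclear receptor that works with that coactivator, fell by 0.90 ± 0.15 (adjusted p = 0.00258). Gabpa, for the DNA-binding subunit of GABP, did not pass for CCl4 in knockout, with 6.84 and 2.48 FPKM in knockout oil and 2.58 and 0.99 in knockout CCl4 libraries. Regulators and members therefore moved in mixed directions in the same libraries. Transcripts encoded by mitochondrial DNA were not analysed here.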

How the data were processed

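The authors deposited 1 table of FPKM per gene and library, per the file headers. Per the submitters' processing notes the build was mm8. Aligner, counting tool, annotation, strand and depth: not given in the sources used here. The table held 16338 lines, of which 1 names no gene. Steps of whole reads in low values were looked for only in the log2 ratio of the 2 wild-type oil libraries. Of 1906 genes between 0.15 and 1 FPKM in both, at most 171 fell in a bin of 0.05. The fullest bin alone cannot show whether steps are present, so precision is known only from the spread of 2 libraries. FPKM are relative to all mapped fragments, so one gene's value drops when others take a larger share.

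FPKM are not counts, so no count test was used. Values were taken as log2(FPKM + 1), the pseudocount being 1, and the test covered the 10082 genes that reached 1 FPKM in 2 or more libraries and left out 6255. One model of the 4 groups was fitted to all 8 libraries with limma 3.58.1 (trended prior) in R 4.3.3 (4 residual and 2.61 prior degrees of freedom). Benjamini-Hochberg adjustment was made over all tested genes of a comparison, at an FDR of 0.05, two-sided. Values after ± are standard errors.

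The members and lists were chosen with earlier results of these data known. Every member may be named, and full values are given for up to 3 small and 3 large subunit genes of each direction and comparison with the smallest adjusted p, the highest and lowest genes of each subunit, and Mrps30, Mrps18a, Mrps36, Mrps12, Mrpl12 and Mrps6. Other lists were counted in the same fit. All 77 members matched RefSeq GRCm38.p6 by Entrez identifier and symbol. Neighbours, transcript length and GC content came from GENCODE M21, by name only, and promoter letters from RefSeq. Spreadsheet dates stood in place of 23 symbols, none of them a member. Alternatives were other scalings, filters, pseudocounts, thresholds, library weights, replicate blocks, the removal of GC content and length trends, and leaving out libraries. Python 3.11.15 and matplotlib 3.10.9 were used for figures.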

Additional observations from a re-analysis of the deposited data

Results flagged for a closer look

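The CCl4 change in knockout minus that in wild type passed limma's interaction test, with Benjamini-Hochberg adjustment over all tested genes, for 8 members in the reported fit. The difference was -1.2 for Mrps35 (adjusted p = 0.00160), -1.15 for Mrpl15 (adjusted p = 0.00219), -0.86 for Mrps27 (adjusted p = 0.00917) and -0.63 for Mrpl49 (adjusted p = 0.0246). It was -0.6 for Mrps5 (adjusted p = 0.0131) and -0.59 for Mrpl42 (adjusted p = 0.0306). On the positive side it was 0.55 for Mrpl17 (adjusted p = 0.0404) and 0.63 for Mrps18b (adjusted p = 0.0254). Across all tested genes 33.3% passed this test. The 8 members rest on the same 8 libraries, and only the calls of Mrps35 and Mrps27 held under all 18 alternatives run.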

How the results depend on the processing

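Several alternatives leave the log2 change as it is and alter only its spread or the threshold. Leaving out a library cannot reverse a pairwise call whose groups lie apart. It therefore adds little that no called change of a member turned its sign under any of the alternatives run. Of 80 calls, 16 held under all of them, and of the single refits 1144 kept and 395 lost a call. The calls higher and lower are given in the order CCl4 effect in wild type and then in knockout, genotype effect in oil and then after CCl4, and interaction, as 1 and 2, 11 and 18, 6 and 7, 14 and 13, and 2 and 6 in the reported fit. All 10082 tested genes gave 1026 and 566, 2816 and 2758, 2256 and 1112, 2989 and 2772, and 1437 and 1918 in that fit. With equal library medians all tested genes gave 727 and 472, 2727 and 2428, 1733 and 1058, 3003 and 2528, and 1384 and 1432. The member calls were then 0 and 0, 9 and 11, 3 and 3, 12 and 9, and 1 and 5. Quantile normalization gave members 6 positive interactions and no filter on low values 1, beside 1811 of 10082 and 1440 of 16337 genes. With only the 4 libraries compared all tested genes gave 2619 and 1561, 2002 and 1895, 1938 and 921, and 2606 and 2490. The member calls were 13 and 8, 3 and 9, 6 and 4, and 10 and 10. With libraries weighted by genotype all tested genes gave 2613 and 1674, 1830 and 1869, 1832 and 919, 2677 and 2730, and 1050 and 1602. The member calls were 10 and 6, 4 and 7, 5 and 3, 14 and 12, and 1 and 4. Without GC and length trends all tested genes gave 1191 and 1376, 3233 and 3035, 2355 and 2132, 3444 and 2974, and 2197 and 2074. The member calls were 0 and 11, 9 and 24, 5 and 14, 15 and 20, and 4 and 12. At an FDR of 0.01 all tested genes gave 557 and 225, 2039 and 1977, 1307 and 556, 2197 and 1788, and 730 and 1114. The member calls were 0 and 0, 3 and 8, 1 and 1, 3 and 8, and 0 and 3. Without both knockout libraries numbered 2 they were 13 and 7, 17 and 19, 12 and 16, 18 and 24, and 7 and 15. The cause of these shifts was not tested. Leaving out 1 library at a time gave 0 to 2 and 0 to 2, 4 to 18 and 10 to 16, 0 to 11 and 0 to 9, 3 to 23 and 8 to 15, and 0 to 5 and 3 to 8; where 1 library remained in a group, it is assumed to vary like the others.

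Replicate numbers do not pair the samples by the labels. The correlation of replicate differences was 0.803 between the knockout groups and -0.253 to 0.219 between the other pairs of groups. A replicate block gave members 1 and 1, 12 and 18, 9 and 6, 17 and 16, and 2 and 7. All tested genes then gave 1044 and 573, 2871 and 2856, 2328 and 1240, 3040 and 3054, and 1509 and 2008. A block in the knockout alone gave members 10 and 8, 22 and 29, 13 and 16, 21 and 26, and 15 and 22. All tested genes gave 2489 and 1484, 3577 and 3832, 3367 and 2013, 3518 and 3546, and 2436 and 3440 with it. A crossed block, added after seeing the data, gave 26 and 18 members for genotype after CCl4, beside 3253 and 3245 of all tested genes.

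Small minus large subunit level was -0.07, -0.16, -0.07 and -0.18 in wild-type oil, wild-type CCl4, knockout oil and knockout CCl4. With medians in place of means it was -0.18, -0.27, -0.11 and -0.34. With Mrps30 and Mrps18a counted as large subunit and Mrps36 left out it was -0.06, -0.13 and -0.20 in wild-type oil, wild-type CCl4 and knockout CCl4, and with a pseudocount of 0.1 it was -0.19 in knockout CCl4. Depth is unknown, and 2 libraries a group limit every value.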
